A study of Homo sapiens with 36 samples.

Results

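ATG5, SMAD2 and MACIR (named C5orf30 in the study), at which readthrough transcription was measured, and TRIM33 and FOXO3, at which transcript elongation was followed, were examined in the PAR-CLIP data of SCAF4 and SCAF8. The choice went by these experiments of the study and not by clusters, although earlier results of these data were known when it was made. A cluster, a stretch of RNA covered by crosslinked reads, was assigned to a gene when its midpoint lay on the gene's strand, within the gene body or the 20 kb downstream of its end (GENCODE 44 on GRCh38). These 5 genes were among 10906 protein-coding genes with a cluster in at least 1 of the 18 lists, and accounted for 238 of 278185 clusters.

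Clusters were given as 18 lists from HEK293 Flp-In T-REx cells, a human embryonic kidney line in which a transgene can be placed at 1 site and induced with doxycycline. Lists came from FLAG immunoprecipitates (IP) and from inputs, in 3 replicates each, of cells carrying FLAG-SCAF4, of cells carrying FLAG-SCAF8 and of untagged parental cells, whose FLAG IP is called control IP. The labels give 100 ng/mL doxycycline for the lines carrying a FLAG-tagged transgene and name none for the parental line. The study's methods give another, higher dose and apply it to the parental cells too, so that the sources differ on whether control cells received the drug. All cells received 100 μM 4-thiouridine (4SU) overnight and 500 μM for 2 h and were irradiated at 365 nm with 2000 J/m2, and RNA of the soluble and chromatin fractions (36 libraries) was combined by the authors into 1 list per replicate. Replicates are biological per the study's methods, with no source naming separate clones, and p-values measure the spread between these lists. The tagged proteins were made from transgenes, and no list measures binding of the untagged proteins.

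SCAF4 and SCAF8 lists held 18287 to 54404 clusters, the inputs 4567 to 12493, and control IP 9638 in replicate 1 but 2314 and 1621 in replicates 2 and 3. Read depth is unknown, since the lists hold no reads, and gene levels are therefore given as clusters per 10000 clusters of the list. A single cluster was worth 0.184 to 0.547 on this scale in the SCAF4 and SCAF8 IP lists and 0.800 to 2.19 in the inputs. In control IP replicates 1 to 3 it was worth 1.04, 4.32 and 6.17. Apart from 0, no lower level than these could appear in a list. Replicate 1 was sequenced as 100 nt reads and the others as 75 nt reads.

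SCAF4 and SCAF8 are related RNA-binding proteins that bind the C-terminal domain of RNA polymerase II, the repeat tail that carries processing factors along the gene. At the end of a gene the nascent transcript is cut and polyadenylated, and polymerase stops some distance further on. Readthrough is transcription that continues past this distance, and elongation is the progress of polymerase along the body, which takes long on a long gene. PAR-CLIP marks where a protein touches RNA: 4SU crosslinks to protein at 365 nm, and a cluster says that RNA of this stretch was recovered, not how polymerase behaved there. RNA amount cannot be told apart from binding in the number of clusters of an IP alone, which is why inputs are given beside each value.

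The genes differ in function and in build. ATG5, which is joined to ATG12 for the lipidation of LC3 in autophagy (ENSG00000057663), lies on the minus strand at chr6:106045423-106325791. SMAD2, the receptor-activated transcription factor of TGF-beta signalling (ENSG00000175387), lies on the minus strand at chr18:47808957-47931146. MACIR, a regulator of macrophage inflammation (ENSG00000181751), lies on the plus strand at chr5:103258763-103278660. TRIM33, a chromatin-bound E3 ubiquitin ligase that acts with SMAD proteins (ENSG00000197323), lies on the minus strand at chr1:114392790-114511203. FOXO3, a forkhead transcription factor held out of the nucleus by AKT (ENSG00000118689), lies on the plus strand at chr6:108559835-108684774. Bodies ran from 19.9 kb for MACIR through 118 kb for TRIM33, 122 kb for SMAD2 and 125 kb for FOXO3 to 280 kb for ATG5. The annotated body of ATG5 ends 139 kb past the 3′ end of its main isoform, at chr6:106184476, and this stretch held no cluster of any list. Positions below are given from the end of the isoform whose exons sum to the greatest length.

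Overlapping clusters (by 1 nt or more) of the 6 SCAF4 and SCAF8 IP lists were merged into 73 regions, numbered along each gene from its 5′ end. The stretches that carry the results below are printed here 5′ to 3′ on the transcribed strand of GRCh38, with capitals for the bases covered by a cluster of every SCAF4 or SCAF8 IP list that held the region, and with coding regions printed only as far as the coding sequence. The first set shows regions in coding exons that SCAF4 and SCAF8 IP lists held and no input or control IP list held. They lie in ATG5 exon 3 (chr6:106308370-106308490), ATG5 exon 7 (chr6:106201975-106202089), SMAD2 exon 2 from the start codon (chr18:47896542-47896756), TRIM33 exon 15 (chr1:114405426-114405629) and FOXO3 exon 3 (chr6:108663455-108663627).
ATG5 region 2: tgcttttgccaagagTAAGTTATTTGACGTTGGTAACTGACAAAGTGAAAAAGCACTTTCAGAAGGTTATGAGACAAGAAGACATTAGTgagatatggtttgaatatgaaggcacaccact
ATG5 region 6: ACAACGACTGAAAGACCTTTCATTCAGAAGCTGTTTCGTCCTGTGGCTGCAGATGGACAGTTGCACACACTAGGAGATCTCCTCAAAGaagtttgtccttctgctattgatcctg
SMAD2 region 1: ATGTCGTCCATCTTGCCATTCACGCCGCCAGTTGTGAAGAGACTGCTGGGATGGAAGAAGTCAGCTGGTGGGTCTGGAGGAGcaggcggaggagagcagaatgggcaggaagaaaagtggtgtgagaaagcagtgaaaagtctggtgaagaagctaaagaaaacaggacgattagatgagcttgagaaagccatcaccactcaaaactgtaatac
TRIM33 region 8: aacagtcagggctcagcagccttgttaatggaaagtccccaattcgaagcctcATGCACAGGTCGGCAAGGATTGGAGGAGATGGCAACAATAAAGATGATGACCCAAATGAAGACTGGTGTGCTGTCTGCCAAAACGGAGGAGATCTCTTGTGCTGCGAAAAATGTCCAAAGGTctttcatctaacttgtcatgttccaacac
FOXO3 region 25: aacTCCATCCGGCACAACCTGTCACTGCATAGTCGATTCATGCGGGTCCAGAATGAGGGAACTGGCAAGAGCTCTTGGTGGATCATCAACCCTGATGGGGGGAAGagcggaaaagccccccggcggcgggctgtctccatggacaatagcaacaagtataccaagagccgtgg

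The second set shows sites held by all 6 SCAF4 and SCAF8 IP lists that inputs also held, in MACIR exon 3 (chr5:103275991-103276206), TRIM33 exon 18 (chr1:114399457-114399570) and FOXO3 intron 3 (chr6:108668264-108668522).
MACIR region 4: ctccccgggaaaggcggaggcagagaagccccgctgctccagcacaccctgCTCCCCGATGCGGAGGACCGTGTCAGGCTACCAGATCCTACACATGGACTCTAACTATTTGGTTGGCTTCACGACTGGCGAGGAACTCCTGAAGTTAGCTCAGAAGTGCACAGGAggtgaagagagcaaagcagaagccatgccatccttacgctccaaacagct
TRIM33 region 10: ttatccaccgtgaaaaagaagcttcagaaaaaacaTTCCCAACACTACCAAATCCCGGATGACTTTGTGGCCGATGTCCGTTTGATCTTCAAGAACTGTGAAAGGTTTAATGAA
FOXO3 region 27: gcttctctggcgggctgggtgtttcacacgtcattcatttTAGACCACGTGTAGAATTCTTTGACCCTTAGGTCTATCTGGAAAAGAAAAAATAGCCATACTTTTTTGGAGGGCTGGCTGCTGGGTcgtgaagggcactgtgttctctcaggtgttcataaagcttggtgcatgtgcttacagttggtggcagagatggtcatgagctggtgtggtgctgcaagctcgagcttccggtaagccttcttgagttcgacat

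The third set shows sites outside exons, in FOXO3 intron 2 (chr6:108562434-108562678) and downstream of MACIR (chr5:103280551-103280655).
FOXO3 region 3: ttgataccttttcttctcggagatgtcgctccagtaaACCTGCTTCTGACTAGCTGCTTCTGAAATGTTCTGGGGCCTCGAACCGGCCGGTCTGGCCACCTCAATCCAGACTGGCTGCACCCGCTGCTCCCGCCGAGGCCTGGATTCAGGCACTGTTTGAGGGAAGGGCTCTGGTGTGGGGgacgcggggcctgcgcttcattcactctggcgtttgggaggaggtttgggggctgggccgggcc
MACIR region 5: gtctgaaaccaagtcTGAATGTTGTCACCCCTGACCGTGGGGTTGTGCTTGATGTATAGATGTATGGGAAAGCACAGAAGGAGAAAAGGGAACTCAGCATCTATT

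ATG5 was the only one of the 5 genes with a cluster in every SCAF4 and SCAF8 IP list and in no control IP list, a pattern shared with 9.42% of 10788 genes. ATG5, MACIR, TRIM33 and FOXO3 had a cluster in all 6 SCAF4 and SCAF8 IP lists, as had 40.7% of genes, and SMAD2 in 5 of them. SCAF4 IP replicates 1, 2 and 3 held 4, 7 and 3 ATG5 clusters, SCAF8 IP 2, 3 and 5, and control IP 0, 0 and 0. SCAF4 inputs held 1, 0 and 0 clusters, SCAF8 inputs 1, 1 and 1, and parental inputs 3, 0 and 0. Every SCAF4 and SCAF8 IP list thus held at least 2 clusters and every input of these lines at most 1. On the scale of clusters per 10000 the groups overlapped, with 1.32 ± 0.490 (SD, n = 6) in the IP lists and 0.670 ± 0.528 (SD, n = 6) in their inputs.

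More TRIM33 clusters came from SCAF4 and SCAF8 IP than from the other lists, but the IP lists were also the largest. SCAF4 IP replicates held 3, 9 and 4 TRIM33 clusters, SCAF8 IP 5, 1 and 4, and control IP 2, 0 and 0. SCAF4 inputs held 0, 0 and 0 clusters, SCAF8 inputs 2, 0 and 0, and parental inputs 2, 0 and 0. All TRIM33 clusters of inputs and control IP were in replicate 1, the batch with the longer reads. The level was 1.32 ± 0.523 (SD, n = 6) in the IP lists of the tagged lines and 0.364 ± 0.893 (SD, n = 6) in their inputs, and the ranges overlapped through the single SCAF8 input with 2.19.

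FOXO3 held more clusters than the other 4 genes together, 140 of 238. SCAF4 IP replicates held 15, 27 and 16 FOXO3 clusters, SCAF8 IP 13, 10 and 19, and control IP 6, 0 and 0. SCAF4 inputs held 11, 2 and 2, SCAF8 inputs 4, 1 and 2, and parental inputs 8, 1 and 3, so that FOXO3 was the only one of the 5 genes present in all 9 inputs. The levels were 5.46 ± 1.23 (SD, n = 6) in the IP lists of the tagged lines and 4.17 ± 2.88 (SD, n = 6) in their inputs, and the highest input, SCAF4 replicate 1, lay above every IP list.

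SMAD2 and MACIR held the fewest clusters. SCAF4 IP replicates held 1, 4 and 2 SMAD2 clusters, SCAF8 IP 2, 0 and 2, and control IP 1, 0 and 0, while SCAF4 inputs held 1, 0 and 1, SCAF8 inputs 0, 1 and 0, and parental inputs 1, 1 and 0. SCAF4 IP held 1, 3 and 1 MACIR clusters, SCAF8 IP 3, 1 and 2, and control IP 1, 0 and 0, while SCAF4 inputs held 1, 0 and 0, SCAF8 inputs 1, 2 and 0, and parental inputs 1, 1 and 0. For both genes, IP and input lists overlapped widely at this number of clusters. The levels were 0.521 ± 0.282 in IP and 0.651 ± 0.833 in input for SMAD2, and 0.599 ± 0.306 and 0.646 ± 0.793 for MACIR (SD, n = 6 each).

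**Figure D1:**
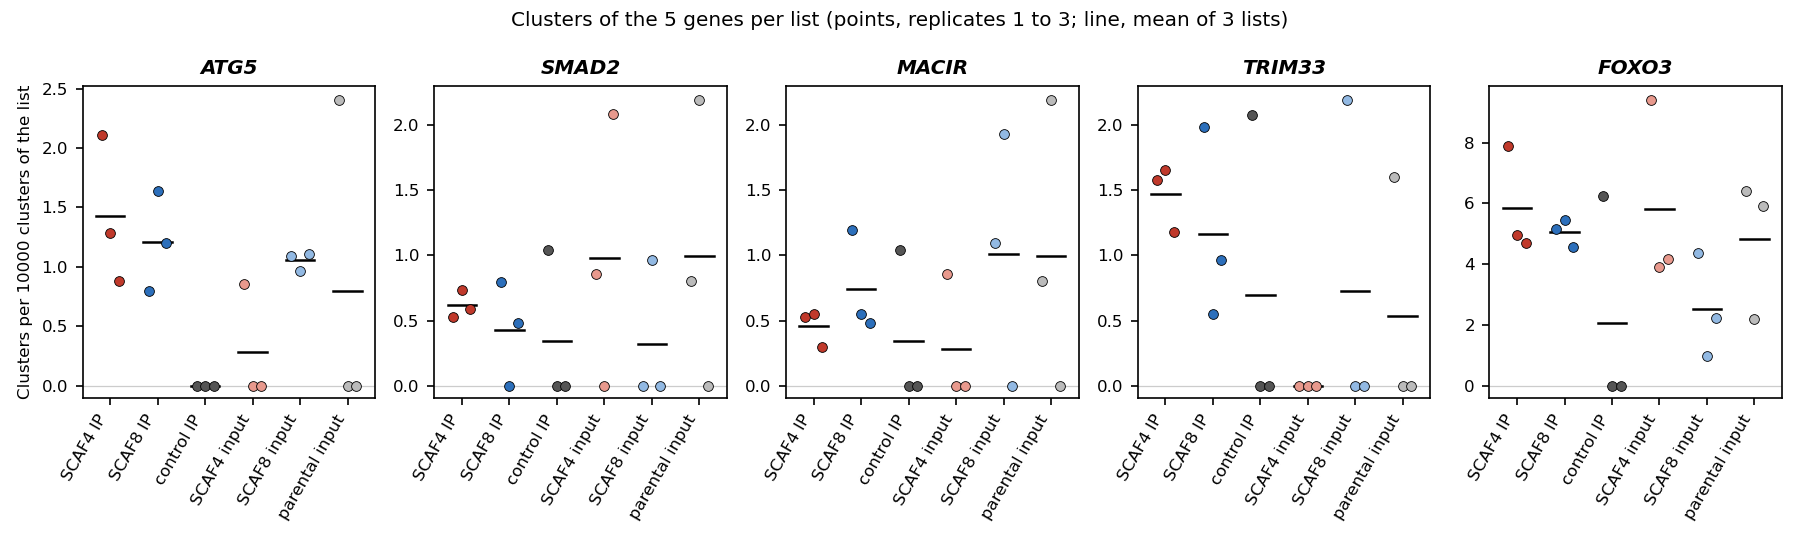
Clusters of each gene per 10000 clusters of the list (y axis, a scale of its own per gene) in the 18 lists, with points for single lists and a line for the mean of 3 lists in each group. ATG5 is at 0 in the 3 control IP lists, and for the other 4 genes control IP replicate 1 lies within or above the range of the IP lists while the other control IP lists are at 0.

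Per length of gene body, the order of the genes was different. SCAF4 and SCAF8 IP lists held 1.27 ± 0.473 FOXO3 clusters, 0.754 ± 0.420 MACIR clusters, 0.366 ± 0.224 TRIM33 clusters, 0.150 ± 0.109 SMAD2 clusters and 0.143 ± 0.0638 ATG5 clusters per 10 kb of body and list (SD, n = 6). The lists of neighbouring genes in this order overlapped. Over the 141 kb of its main isoform alone, ATG5 held 0.283 ± 0.127 clusters per 10 kb and list (SD, n = 6), since the rest of its body held none. Within each gene, every list group overlapped the next in the order of the means.

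The first comparison asked whether SCAF4 and SCAF8 IP held more clusters of a gene than the inputs of the same lines, each gene being tested by a two-sided exact permutation of the 12 list labels, with Benjamini-Hochberg adjustment over 10854 genes. None of the 5 genes passed at an adjusted p of 0.05, beside 4.08% of all genes that passed with the IP higher (443 genes) and 237 that passed with the input higher. ATG5 was 0.649 clusters per 10000 higher in IP (exact permutation test, p = 0.0563, adjusted p = 0.202), and TRIM33 was 0.953 higher (p = 0.0584, adjusted p = 0.202). FOXO3 was 1.29 higher in IP (exact permutation test, p = 0.338, adjusted p = 0.639), and 0.548 without replicate 2. SMAD2 differed by −0.130 (exact permutation test, p = 0.784) and MACIR by −0.0475 (p = 0.887), with adjusted p = 1 for both. The median difference over all 10854 genes was 0.139, so that ATG5, TRIM33 and FOXO3 lay above it and SMAD2 and MACIR below. Counts not divided by the list total gave another outcome: ATG5 was 3.33 clusters per list higher in IP (exact permutation test, adjusted p = 0.0191), TRIM33 4.00 higher and FOXO3 13.0 higher (adjusted p = 0.0293 for both), along with 3446 genes in all (31.7%) and 0 with the input higher. IP lists were larger than the inputs of the same lines throughout. In these raw counts, every IP list lay above every input for ATG5 alone among the 5 genes, beside 11.3% of all genes.

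**Figure D2:**
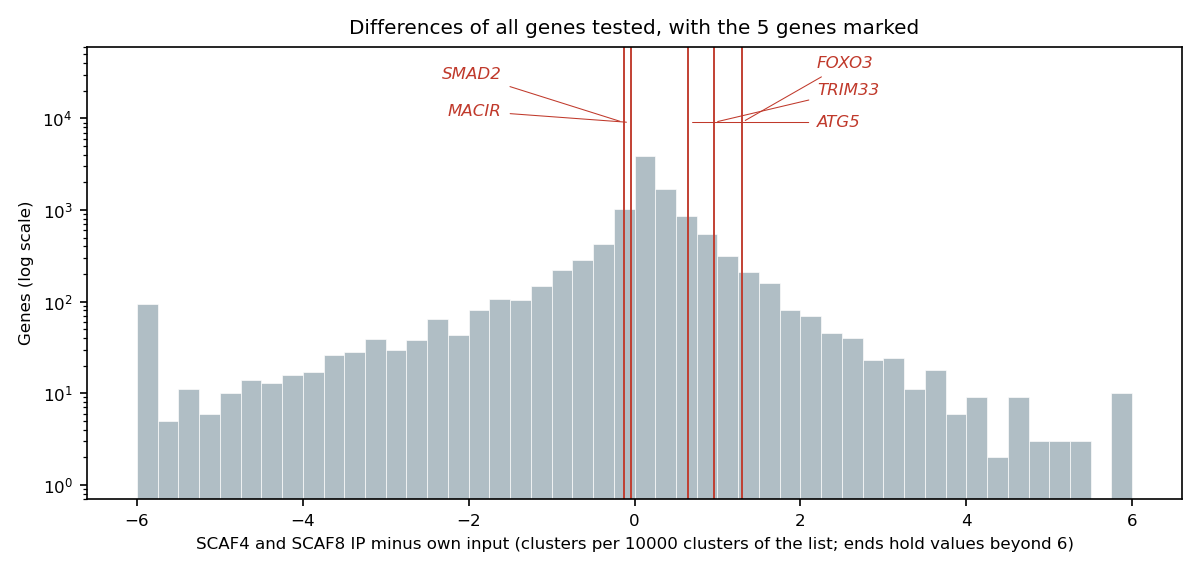
Number of genes (y axis, log scale) by the difference of SCAF4 and SCAF8 IP minus own input in clusters per 10000 (x axis; bins at the ends hold values beyond 6) for 10854 genes, with lines for the 5 genes. SMAD2 and MACIR lie just below 0, and ATG5, TRIM33 and FOXO3 between 0.649 and 1.29, within the right flank of all genes.

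The differences moved with the sequencing batch for FOXO3. In replicate 1, FOXO3 was −0.352 (IP minus own input), and in replicates 2 and 3 it was 2.11 (p = 0.0286 by exact permutation, which no split of 4 lists against 4 can undercut). TRIM33 was 0.689 and 1.09 in the same batches (exact permutation test, p = 0.0286 in replicates 2 and 3), and ATG5 was 0.477 and 0.735 (p = 0.0857 in replicates 2 and 3). TRIM33 and ATG5 thus kept 1 direction in both batches. Replicate 1 has 2 lists against 2, where the exact permutation test cannot give a p under 0.333. The share of all genes that kept 1 direction was not taken. SMAD2 was 0.233 and −0.311, and MACIR −0.115 and −0.0139. The p-values of replicates 2 and 3 are unadjusted, and with replicate 1 left out no gene was called higher in IP after adjustment. Over all replicates, 73.8% of the genes tested were higher in IP than in own input.

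Against control IP, none of 10811 genes passed the adjusted threshold by the exact permutation test (1995 at an unadjusted p under 0.05, smallest adjusted p = 0.121), so the share called is 0%. ATG5 was 1.32 clusters per 10000 higher in SCAF4 and SCAF8 IP, with every IP list above every control IP list (exact permutation test, p = 0.0119, the smallest p of 84 splits, adjusted p = 0.121), as for 11.9% of genes. FOXO3 was 3.39 higher (exact permutation test, p = 0.0714, adjusted p = 0.287). TRIM33 was 0.626 higher, MACIR 0.253 and SMAD2 0.175 (exact permutation tests, p = 0.298, 0.452 and 0.560). The small control IP lists of replicates 2 and 3 held no cluster of any of the 5 genes. In replicate 1, where control IP held 9638 clusters, IP minus control IP was 1.45 for ATG5, 0.304 for FOXO3, −0.179 for MACIR, −0.293 for TRIM33 and −0.377 for SMAD2. In raw counts, every SCAF4 and SCAF8 IP list lay above every control IP list for ATG5 and FOXO3, beside 23% of genes.

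SCAF4 and SCAF8 IP were then set against each other. SCAF4 minus SCAF8 IP was 0.212 for ATG5, 0.192 for SMAD2, −0.282 for MACIR, 0.305 for TRIM33 and 0.788 clusters per 10000 for FOXO3 (exact permutation tests, p = 0.5 to 0.8). With 3 lists against 3 the smallest p is 0.1, so that this comparison could not pass for any gene, and 0% were called of 10788 genes (0 also at an unadjusted p under 0.05). The difference between the lines in IP minus own input was 0.984 for ATG5 and 1.03 for TRIM33 (SCAF4 line higher, exact permutation test, p = 0.1 for both), 0.441 for MACIR, −0.467 for SMAD2 and −2.52 for FOXO3 (p = 0.2 to 0.6). The p-values of this difference took IP and input of the same replicate number as pairs, and no source ties these numbers.

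Over the 5 genes together, exons held more clusters of SCAF4 and SCAF8 IP than introns did, although FOXO3 alone had more in introns (51 of 100). Of 172 clusters, 96 (55.8%) had the midpoint in an exon, 69 (40.1%) in an intron and 7 (4.07%) downstream of the gene end. Of 56 clusters of the 9 inputs, 19 (33.9%) were exonic, 35 (62.5%) intronic and 2 (3.57%) downstream, and of 10 clusters of control IP 7 were exonic and 3 intronic. By list, the exonic share was 58.7 ± 11.4% in SCAF4 and SCAF8 IP (SD, n = 6, from 48% to 80.0%) and 35.5 ± 19.7% in the inputs (SD, n = 9, from 0% to 66.7%), and the ranges overlapped. No test was made of this share.

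TRIM33 was the most exonic of the 5 genes, with 22 of its 26 SCAF4 and SCAF8 IP clusters in exons (84.6%), against 17 of 24 for ATG5, 7 of 11 for MACIR, 6 of 11 for SMAD2 and 44 of 100 for FOXO3. Clusters per kb were denser in exons than in introns, in IP and, for 4 of the 5 genes, in inputs as well. Per kb and IP list, ATG5 held 0.890 clusters in exons and 0.00845 in introns, a ratio of 105, beside a ratio of 57.8 in the inputs. TRIM33 held 0.438 and 0.00606, a ratio of 72.3, beside 4.38 in the inputs, which held 4 TRIM33 clusters in all. The ratio was 19.8 in IP and 22.6 in inputs for MACIR. It was 13.9 in IP for FOXO3, whose inputs held 0.152 clusters per kb and list in exons and 0.0217 in introns. SMAD2, whose isoform has 34.6 kb of exons, most of it 1 long last exon, had a ratio of 3.02 in IP and no exonic cluster in the inputs. The difference of these ratios between IP and inputs was not tested. FOXO3 introns had the highest density in both kinds of list, 0.0723 clusters per kb and list in IP and 0.0217 in inputs, followed by MACIR with 0.0197 and 0.00657.

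**Figure D3:**
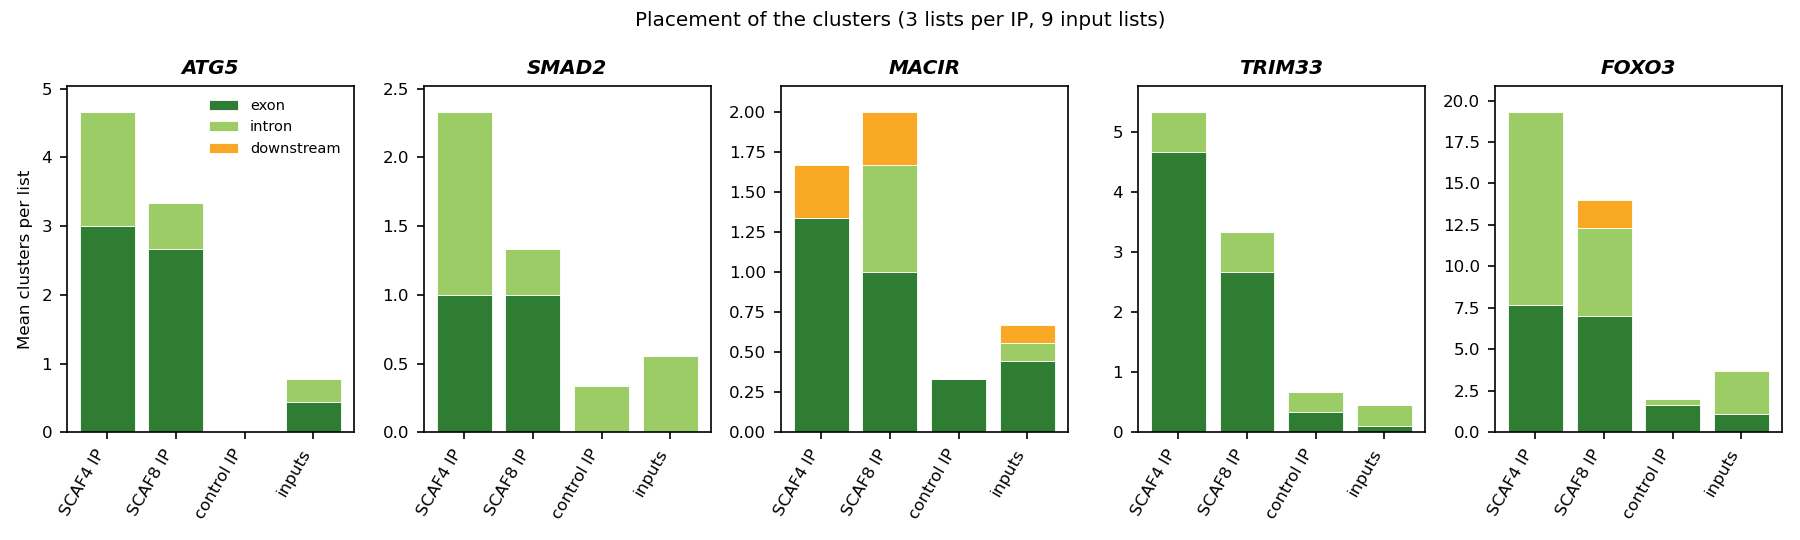
Mean clusters per list (y axis, a scale of its own per gene) of SCAF4 IP, SCAF8 IP, control IP (3 lists each) and the 9 inputs, divided into exon, intron and the 20 kb downstream of the gene end. Downstream clusters of SCAF4 or SCAF8 IP are seen for MACIR and FOXO3 and not for the other 3 genes; the FOXO3 ones are from SCAF8 IP.

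Placement was also summed for the genes studied for readthrough and those studied for elongation. All 5 genes are on the study's list of readthrough genes, so these groups do not separate genes with readthrough from genes without it. The readthrough genes had 30 exonic (65.2%), 14 intronic and 2 downstream clusters (4.35%) among 46 of SCAF4 and SCAF8 IP. The elongation genes had 66 exonic (52.4%), 55 intronic and 5 downstream clusters (3.97%) among 126, of which FOXO3 gave 100. No test was made of these shares.

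Past the gene end, MACIR had 1 place. MACIR region 5, 1.94 kb past the end, held a cluster of SCAF4 IP replicate 2, of SCAF8 IP replicate 3 and of SCAF8 input replicate 2. FOXO3 had 5 downstream regions, at 0.28, 1.64, 5.67, 13.7 and 14.2 kb past the end, each with a cluster of 1 list, the first in SCAF8 IP replicate 1 and the other 4 in SCAF8 IP replicate 3. No SCAF4 IP list held a cluster downstream of FOXO3, and parental input replicate 1 held 1. ATG5, SMAD2 and TRIM33 had no cluster of any list in the 20 kb past the gene end. A downstream cluster of SCAF4 or SCAF8 IP was thus found at 2 of 5 genes, beside 39.5% of 10788 genes, a share that includes clusters of neighbouring genes. No other protein-coding gene of the same strand held a cluster in the windows of the 5 genes.

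The last cluster of SCAF4 or SCAF8 IP before the isoform end lay, by its midpoint, 0.621 kb from it in FOXO3, 2.54 kb in MACIR, 4.57 kb in TRIM33, 6.97 kb in ATG5 and 15.3 kb in SMAD2. The SMAD2 cluster, in the long last exon and found in SCAF8 IP replicate 1 alone, lay past the ends of 9 of 10 coding isoforms and 7.32 kb past the nearest of them. Another cluster in this exon, of SCAF8 IP replicate 3, lay past 7 of the 10 ends. The last TRIM33 cluster lay past the ends of 2 of 3 coding isoforms, 0.246 kb past the nearest. FOXO3 regions 34 to 36 lay past the end of 1 of 3 coding isoforms. Whether such clusters count as downstream of their gene thus depends on the isoform taken.

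The study saw readthrough in SCAF4 knockout cells, by sequencing of nascent RNA and with primer pairs placed past the gene ends. Its methods name no knockout in the cells used for PAR-CLIP. Clusters and readthrough were thus not measured in the same cells, and the lists cannot show whether SCAF4 or SCAF8 binds readthrough RNA. All 12 primers, 2 pairs per gene, were located on GRCh38. The pair nearest to the end is printed for each of the 3 genes, in lower case throughout because no base is singled out: SMAD2 P2 at chr18:47802959-47803046, C5orf30 P2 at chr5:103288785-103288845 and ATG5 P1 at chr6:106156775-106156834.
SMAD2 P2 F: ttcactccggtctccaggat
SMAD2 P2 R: acagcatgtcgtcaccatgt
C5orf30 P2 F: tgcgccttgaaatcagacca
C5orf30 P2 R: tgtcagcaccagggttcaag
ATG5 P1 F: ccagagatgctccagtgacag
ATG5 P1 R: cccacttctgtctaaaccgct

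None of the pairs lay at a cluster of SCAF4 or SCAF8 IP. The SMAD2 pairs lay 5.96 and 15.2 kb past the isoform end and 21.2 and 30.5 kb from the nearest IP cluster of the gene. The MACIR pairs lay 10.2 and 13.5 kb past the end, and 8.21 and 11.6 kb from MACIR region 5. The ATG5 pairs lay 27.7 and 48.1 kb past the isoform end, inside the annotated gene body, and 34.6 and 55.1 kb from the nearest IP cluster.

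**Figure D4:**
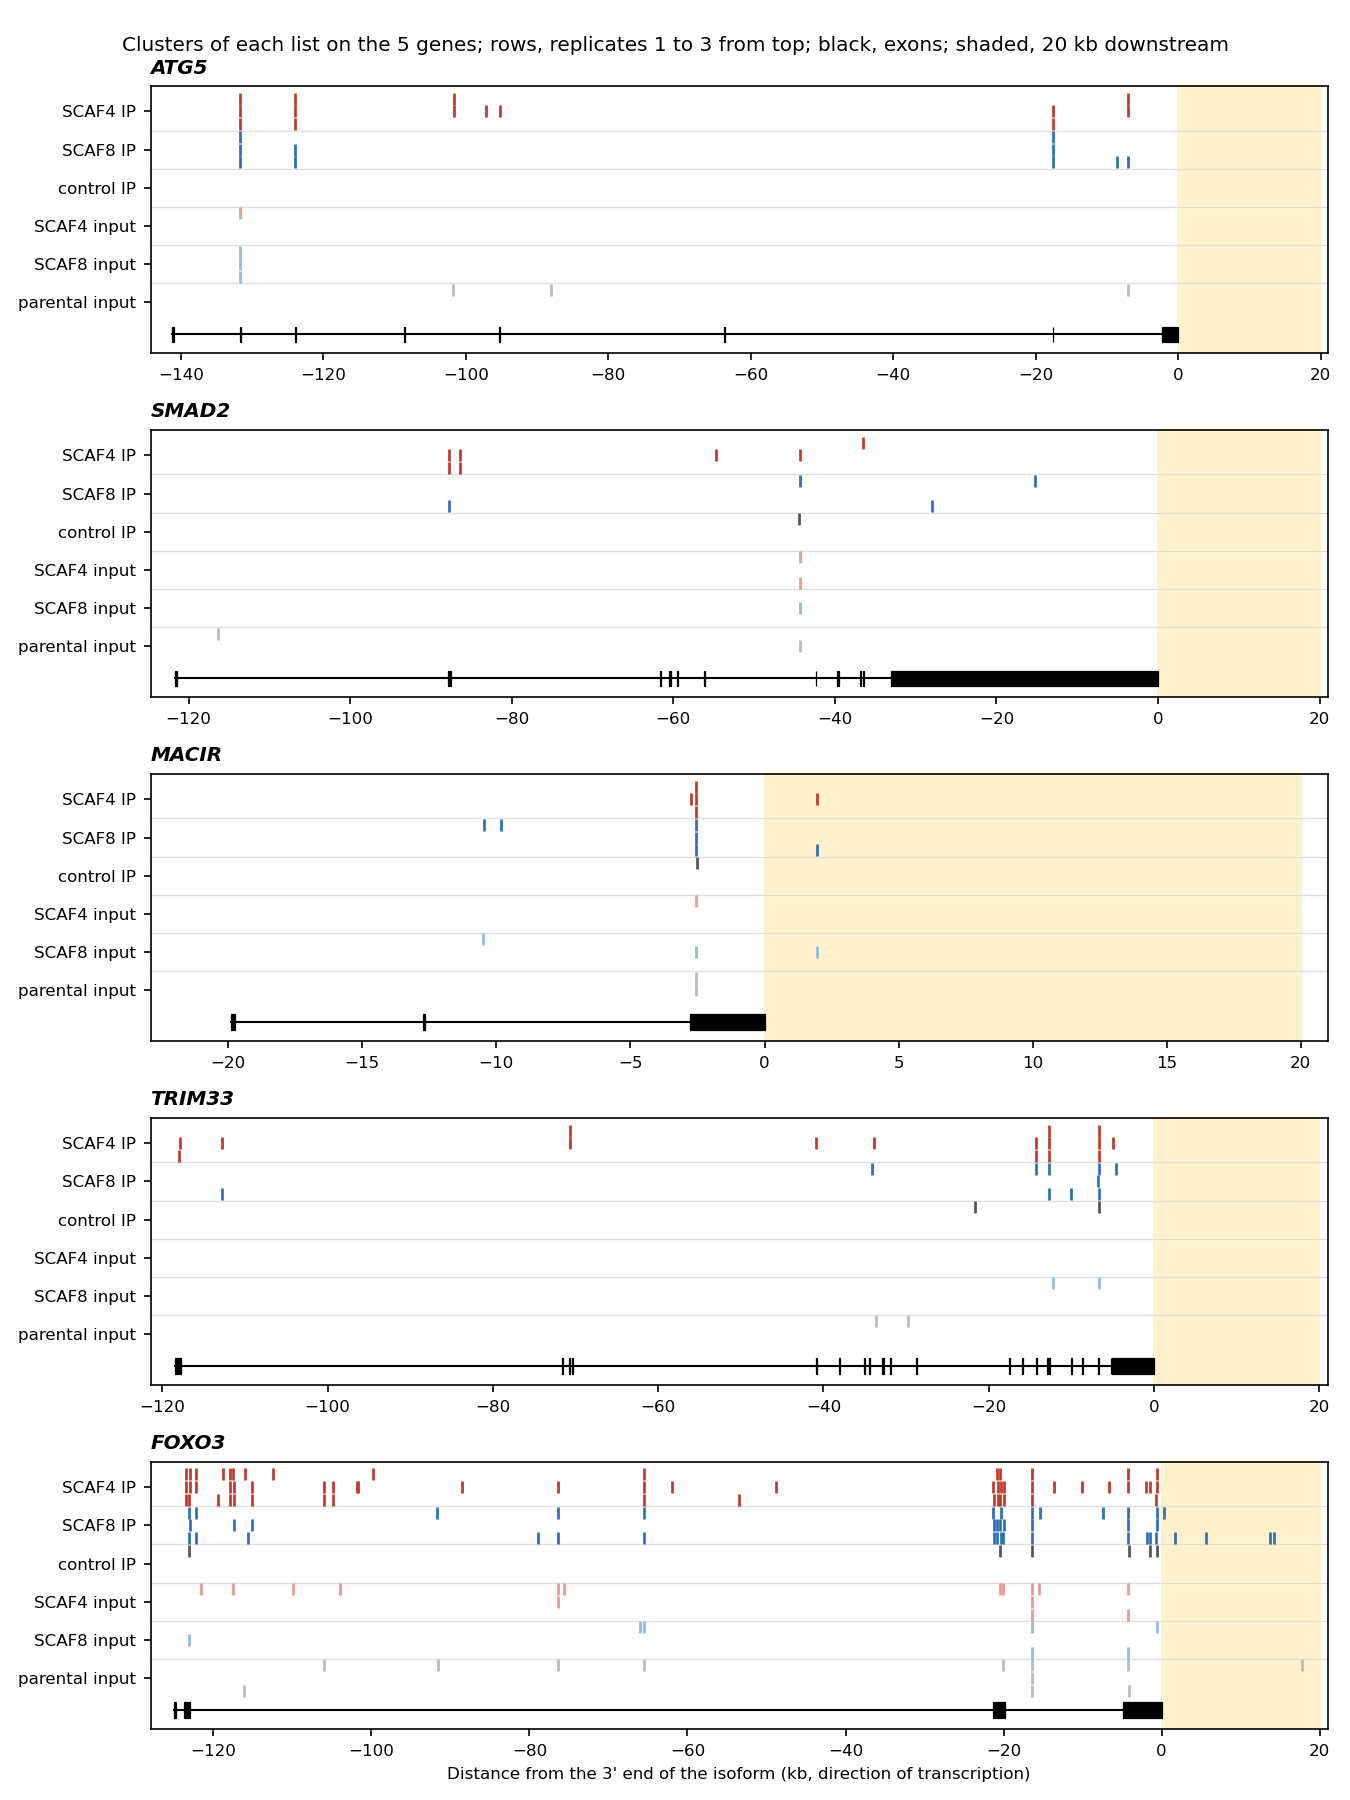
Cluster midpoints (ticks) along the 5 genes by list group, with replicates 1 to 3 from top to bottom within each group; the x axis is the distance from the isoform's 3′ end in kb in the direction of transcription, black boxes are exons and the shaded stretch is the 20 kb downstream. Ticks stack at the same positions across lists, as in ATG5 exons 2, 3 and 7 and TRIM33 exons 15 and 18, while FOXO3 ticks spread over its long intron 2.

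Recurrence was used to see which sites were found more than once. Of the 73 regions, 33 were found in 2 or more of the 6 SCAF4 and SCAF8 IP lists. A region was then removed, following the study's methods, if it met clusters of 2 or more inputs or any control IP cluster, and 21 were left: 9 in FOXO3, 5 in TRIM33, 4 in ATG5, 2 in SMAD2 and 1 in MACIR. All 5 genes thus kept a region, as did 75.4% of 10788 genes, but the regions of MACIR and SMAD2 hung on few lists. MACIR kept 0 without replicate 2, without replicate 3 or when a cluster of any input removed a region, and SMAD2 kept 0 without replicate 3. FOXO3 kept 5 without replicate 2 and 16 without replicate 1. A replicate left out was also left out of the inputs and control IP that remove regions. Replicate 1 has the only control IP list with a cluster of these genes. By protein, with at least 2 of its 3 lists, 19 regions were left for SCAF4 (66.6% of genes kept at least 1) and 6 for SCAF8 (53.1% of genes). MACIR kept 0 for either protein, and SMAD2 2 for SCAF4 and 0 for SCAF8. Merged input regions per 10 kb of gene numbered 1.44 in FOXO3, 1.01 in MACIR, 0.338 in TRIM33, 0.164 in SMAD2 and 0.143 in ATG5. A further limit of 1 input region per 10 kb, taken from the methods, would remove FOXO3 and MACIR altogether and leave 11 regions of the other 3 genes.

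The sites found most often were not those left. The 7 regions with a cluster in all 6 SCAF4 and SCAF8 IP lists, in ATG5 exon 2, MACIR exon 3, TRIM33 exon 18 and 4 places in FOXO3, were each removed through inputs or control IP, and over all genes 15.9% of 6131 such regions were left. FOXO3 region 27 in intron 3 was the extreme, with a cluster in all 6 SCAF4 and SCAF8 IP lists, in control IP replicate 1 and in 8 of 9 inputs. MACIR region 4 was also held by control IP replicate 1 and by 4 inputs. The region of TRIM33 exon 18 was held by control IP replicate 1 and by 1 input. All 21 regions left held a cluster of SCAF4 IP replicate 2, the largest list, as did 83.4% of the 27733 regions left over all genes. SCAF4 IP replicates 1 and 3 were in 9 and 14 of the 21, beside 27.6% and 62.3% of the regions left over all genes. SCAF8 IP replicates 1, 2 and 3 were in 5, 5 and 10 of the 21, beside 32.3%, 25.6% and 62.7%. Over all genes these shares followed the order of list size. The counts among the 21 regions did not throughout, and this departure was not tested.

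**Figure D5:**
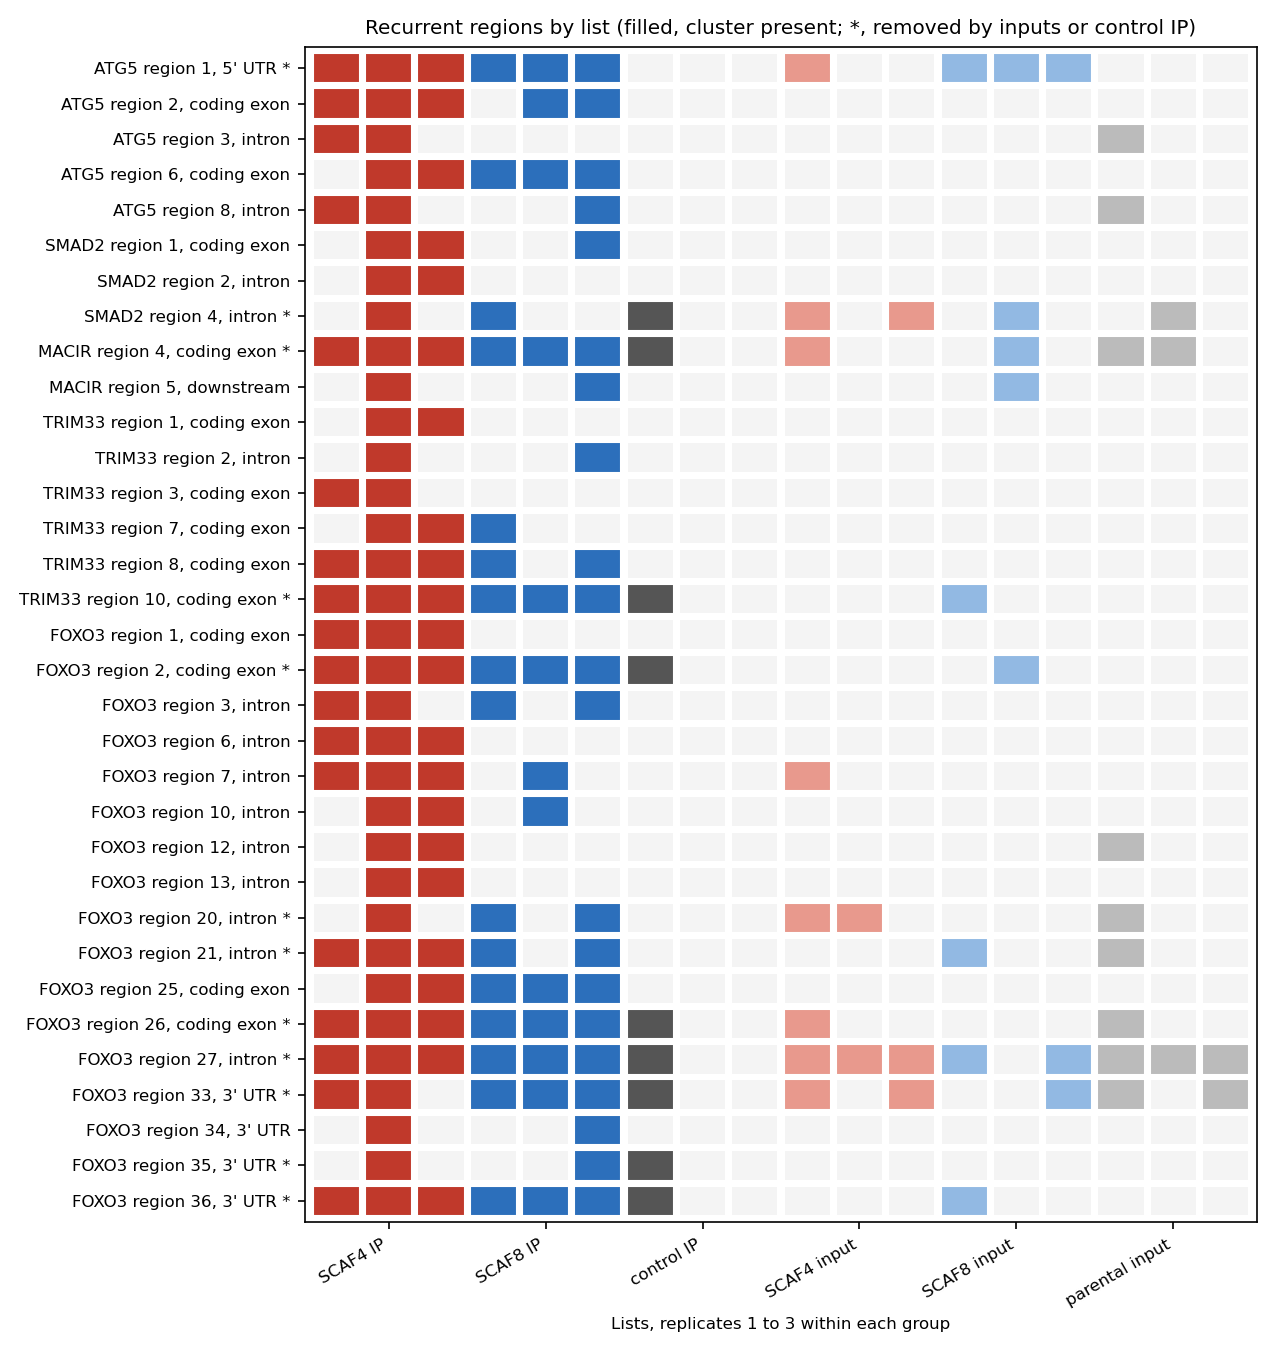
The recurrent regions of the 5 genes (vertical axis, named by gene, number and annotation) in the 18 lists (horizontal axis, replicates 1 to 3 within each group), filled where the list held a cluster; an asterisk marks regions removed by inputs or control IP. Filled SCAF4 and SCAF8 IP cells in all 6 lists occur only beside an asterisk.

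The regions left were in coding exons (9), introns (10), a 3′ UTR (1) and downstream (1). ATG5 regions 2 and 6, in exons 3 and 7, were held by 5 of 6 SCAF4 and SCAF8 IP lists and by no input or control IP list. The same held for TRIM33 region 8 in exon 15 and FOXO3 region 25 in exon 3, of which the last shares sequence with FOXO3B. Another stretch of FOXO3 exon 3, region 26, was held by all 6 of these IP lists, by 2 inputs and by 1 control IP list. SMAD2 exon 2, which holds the start codon, was held by SCAF4 IP replicates 2 and 3 and SCAF8 IP replicate 3, and by no input or control IP list. In FOXO3 intron 2, region 3 was held by 4 SCAF4 and SCAF8 IP lists and by no input or control IP list, and lay 727 nt from the nearest exon. Of 18 recurrent regions with the midpoint in an exon, 10 lay within it and 8 reached into an intron, by up to 141 nt.

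Short sequence motifs were counted in the 100 nt around the middle of each region left, on the transcribed strand. CGG or CGA was present in 66.7% of the 21 regions and in 69.8% of the 27733 regions left over all genes. CCAGC or CCAGG or GCAGC or GCAGG was present in 23.8% and 46.4%, CTCC or CACC in 38.1% and 51.0%, and the polyA signal AATAAA in 4.76% and 2.95%. These are descriptions, and with 21 regions 1 region more or less moves a share by 4.76 percentage points. Base content was close, with medians of 23% T and 48% GC in the 21 regions and 24% T and 50% GC in all.

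Some of the regions had exact copies elsewhere in the genome, and reads from a copy could not be placed with certainty. Every exonic recurrent region of FOXO3 shared 31.0% to 94.6% of its 25-nt words with FOXO3B, a FOXO3 copy on chromosome 17, and no intronic recurrent region of FOXO3 did. Without its exonic clusters, FOXO3 kept 56 clusters in SCAF4 and SCAF8 IP, 15 in their inputs and 1 in control IP, and IP minus own input was 0.0873 (exact permutation test, p = 0.939). IP minus control IP was then 2.61 (exact permutation test, p = 0.0119, the smallest of 84 splits, adjusted p = 0.121), where 1 cluster in control IP replicates 2 and 3 would be worth 4.32 and 6.17. SMAD2 region 4, in intron 6, lay in MTCO2P2, a copy of a mitochondrial gene, and all of its 70 words were found elsewhere, 46 of them on the mitochondrial genome. Without clusters in MTCO2P2, SMAD2 kept 9 clusters in 5 of 6 SCAF4 and SCAF8 IP lists and 0 in the inputs of these lines and in control IP, and IP minus own input turned to 0.424. No test is given for it, since all 3 clusters of these inputs lay in the stretch left out and 1 cluster of such a list is worth more than this difference. Both settings were chosen after the values had been seen. Of the recurrent regions of ATG5, MACIR and TRIM33, 1 word of ATG5 region 3 had a copy and no other.

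A list of readthrough genes drawn up in other experiments was set beside the 5 genes. Of its 1281 names 1269 were matched, and all 5 genes are on it. Of 987 listed genes tested, 37 (3.75%) were higher in SCAF4 and SCAF8 IP than in own input by the exact permutation test with adjustment over all genes, beside 4.08% of all genes, and 11 were lower. The median difference was 0.142 for the list and 0.139 for all genes. Among genes with a SCAF4 or SCAF8 IP cluster, a region was left in 76.2% of listed genes and 75.4% of all. A SCAF4 or SCAF8 IP cluster within 20 kb downstream was found for 150 of 977 listed genes (15.4%), beside 39.5% of all genes. Among genes with such a cluster in window or body, listed genes were longer, with a median body of 90.6 kb against 33.7 kb. The part of length and of neighbouring genes in these shares was not tested.

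Other genes of the same pathways gave 1 call among those tested, beside 4.08% of all genes. Of 16 SMAD and TGF-beta genes, 13 were tested and 1 passed with IP higher by the exact permutation test, ACVR1B, an activin receptor, named here because it was the call, with a difference of 0.959 (adjusted p = 0.0345) and 19 clusters in the 6 SCAF4 and SCAF8 IP lists. Of 11 genes of the ATG conjugation systems, 8 were tested and none passed, and of 3 further FOXO genes 2 were tested and neither passed. FOXO4 differed by 0.449 and FOXO1 by −0.0453.

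The genes with the most similar pattern over the 18 lists were found by the correlation of log2(clusters per 10000 + 1) among 6310 genes. They were LATS1 (r = 0.948) and NCBP2 (0.933) for ATG5, CCDC82 (0.962) and ATP13A3 (0.940) for TRIM33, and LUC7L (0.906) and HOXB6 (0.889) for FOXO3. For SMAD2 they were TOB2 (0.844) and TNFRSF10D (0.809), and for MACIR KIZ (0.886) and ENSG00000272647 (0.835). The 18 points share lists, list sizes and many zeros, so these values describe likeness of pattern and carry no test.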

How the data were processed

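PAR-CLIP libraries of FLAG IP and input were sequenced by the authors (36 libraries), trimmed and aligned, and clusters were called with PARalyzer per the study's methods. The processing notes name bcl2fastq 1.8, Trim Galore, cutadapt, Picard and Bowtie2 2.2.9. The authors deposited 18 lists, each with positions on GRCh38, strand and a score per cluster, whose meaning is not given in the sources used here. The score was used only to halve lists in an alternative. The lists come before the removal of input and control IP clusters, and no depth is given, so counts have no interval.

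Gene bodies, exons and isoforms came from GENCODE 44, and sequences from the GRCh38 genome. A cluster belonged to a gene by its midpoint, in the body or 20 kb downstream. Levels were clusters per 10000 clusters of the list. Lists were compared by two-sided exact permutation, run on all protein-coding genes and adjusted by the Benjamini-Hochberg method, after a check on simulated data. Alternatives were other windows, assignment by overlap, raw counts, higher scores, genes without overlap, a replicate block, and each replicate left out. The labels number IP and input alike, but no source ties the numbers. The members were chosen, and the lists of further genes drawn up, with earlier results of these data known. Genes named were the 5 genes, overlapping genes, annotated copies, genes of the pathway lists and the 2 genes most similar to each. Python 3.11.15, numpy 2.4.6, pandas 2.3.3 and matplotlib 3.10.9 were used.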

Additional observations from a re-analysis of the deposited data

Results flagged for a closer look

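In 3 of 10 groups of 6 lists, 1 list stood apart by Dixon's test. Chance does this in about 1 of 20 groups of continuous values, and these are a few clusters per list with many zeros, so that the number of such groups cannot be read against that rate. For MACIR, SCAF8 IP replicate 1 was at 1.19 clusters per 10000 (3 clusters), with the next of the SCAF4 and SCAF8 IP lists at 0.551. For TRIM33, SCAF8 input replicate 1 was at 2.19 (2 clusters), with the other 5 inputs of the FLAG lines at 0, where any single value above 0 would have stood apart. For FOXO3, SCAF4 IP replicate 1 was at 7.90 (15 clusters), with the next IP list at 5.47. All of these are replicate 1 lists, from the batch with 100 nt reads.

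Signal also appeared outside the windows of the 5 genes. The body of FOXO3B held 12 clusters in 5 of 6 SCAF4 and SCAF8 IP lists (2, 5 and 1 in SCAF4 IP, 2, 0 and 2 in SCAF8 IP) and 0 in control IP and all inputs, a mean of 0.590 ± 0.403 per 10000 (SD, n = 6). FOXO3 exons share sequence with FOXO3B in part, with 31.0% to 94.6% of the words of each exonic recurrent region of FOXO3 found elsewhere. Where the sequence is shared, the gene of origin of a cluster cannot be told with certainty. Which clusters of FOXO3B and of FOXO3 exons rest on shared sequence alone was not tested. The strand opposite to SMAD2 held 1 cluster in the SCAF4 and SCAF8 IP lists (0.0402 per 10000), and the other 4 genes 0.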

How the results depend on the processing

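Raw counts raised the genes called for IP against own input from 443 to 3446 and the members called from 0 to 3. No gene was called by the exact permutation test when clusters below the median score of each list were dropped (0), with the replicate block (0; 1444 at an unadjusted p under 0.05; smallest adjusted p = 0.235), or with a replicate left out (0 to 0), where fewer splits exist. For IP minus own input, SMAD2 turned to 1.33 with raw counts, 0.449 with the higher scores and 0.424 without MTCO2P2, and ranged from −0.311 to 0.0593 (without replicate 3) with a replicate left out. MACIR turned to 1.17 with raw counts, 0.237 with the higher scores and 0.0425 for the body alone, and ranged from −0.265 to 0.137 (without replicate 2). FOXO3 turned to −0.196 with the higher scores. Against control IP, SMAD2 ranged from −0.00483 (without replicate 3) to 0.452. For SCAF4 minus SCAF8 IP the lowest and highest values with a replicate left out were −0.338 (without replicate 1) and 0.495 for ATG5, −0.186 (without replicate 1) and 1.44 for FOXO3, −0.0802 (without replicate 2) and 0.421 for SMAD2, and −0.0957 (without replicate 2) and 0.661 for TRIM33. The cause was not tested. IP and input of 1 number correlated by 0.0262 to 0.419 (6 pairs, 3965 genes) and those of other numbers by −0.318 to 0.188 (12 pairs), so the pairing is not established. The 21 regions left became 61 with 1 list enough, 0 with all 6 lists, 33 without removal, and 11 (without replicate 2) to 27 (without replicate 1). The 19 SCAF4 regions became 44, 6, 29 and 6 to 21 in the same order, and the 6 SCAF8 regions 32, 2, 16 and 2 (without replicate 3) to 9. A replicate left out was also left out of the inputs and control IP that remove regions. Few clusters per gene set the limit: a single cluster in control IP replicate 3 would exceed the IP mean of every member, and in replicate 2 that of every member but FOXO3.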
